A study of Macaca mulatta with 6 samples.

Results

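The genes described here encode the pore-forming subunits of voltage-gated calcium channels in rhesus monkey cortex: CACNA1A, CACNA1B, CACNA1C, CACNA1D, CACNA1E, CACNA1G, CACNA1H and CACNA1I. They were taken by family membership, as the rows of the deposited gene table whose rhesus Ensembl identifier pairs with 1 of these symbols. All 8 were found among 23191 rows, and all 8 had a mean of at least 10 normalized counts, the minimum for testing, which 16595 genes reached. The libraries came from cortical neurons of male rhesus monkeys (Macaca mulatta) aged 3 to 4 years, and polyadenylated RNA was sequenced. The morphine group (3 libraries) received subcutaneous morphine, an agonist of the mu opioid receptor, in 3 daily injections over 90 days, with a dose of 3 mg/kg in the first week and 15 mg/kg from day 29. The saline group (3 libraries) received 0.9% saline on the same schedule. The study, which concerns chromatin folding after long morphine exposure, used 4 monkeys, 2 per group, and the descriptions carry a single code for the libraries of each group. Some libraries of a group therefore share an animal, p-values over libraries are too small for a statement about animals, and drug and animal cannot be told apart.

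A voltage-gated calcium channel is built around 1 large pore-forming subunit that senses voltage and passes calcium, joined in most types by a beta and an alpha2delta subunit. P/Q-type, N-type and R-type channels serve transmitter release, L-type channels link depolarization of the soma and dendrites to gene transcription, and T-type channels open at low voltage and shape burst firing. Opioid receptors inhibit N-type and P/Q-type channels through the beta-gamma dimer of inhibitory G proteins, which lowers transmitter release.

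Depth recovered from the values was 31238653 to 36345095 reads per library. The first principal component carried 45.7% of the variance, with all morphine libraries on 1 side and all saline libraries on the other. The libraries are labelled as purified neurons, yet transcripts of other cells were abundant: the myelin gene MBP had 202716 ± 883 normalized counts in morphine libraries and 192902 ± 3180 in saline libraries (SD, n = 3 each). In bulk RNA of this kind, a change in the number of cells of a type and a change in RNA per cell cannot be told apart.

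All 8 pore subunit genes were higher in morphine than in saline libraries, and for each of them every morphine library lay above every saline library. Of the 8, 5 rose at a Benjamini-Hochberg adjusted p under 0.05 in limma, fitted over all tested genes: CACNA1H, CACNA1B, CACNA1C, CACNA1E and CACNA1G. None fell, and the 3 others had positive differences that did not pass (CACNA1A, CACNA1D and CACNA1I). Over all tested genes 12.9% rose and 15% fell, and the libraries of the groups stood fully apart with morphine above for 24.1% of genes. Among the 8829 genes with a mean of at least 500 normalized counts, a level that all 8 members reach and that was chosen after their values were known, 15.8% rose and 29.2% stood apart with morphine above. The median log2 fold change was 0.31 over the 8 genes, against 0.01 over all genes tested. Summed over the 8 genes, the libraries held 24249 ± 598 normalized counts in morphine libraries and 19127 ± 494 in saline, 26.8% more with morphine. Calls were fewer without any 1 library: 3 of the 8 genes rose without morphine library 1, 2 or 3 or saline library 1 or 2, and 4 without saline library 3. CACNA1H, CACNA1B and CACNA1C rose in each of these fits. The share of all genes that rose was smaller as well: 6.85%, 6.46% and 6.94% without morphine library 1, 2 or 3, and 8.64%, 8.22% and 9.02% without saline library 1, 2 or 3. DESeq2 on the recovered reads called all 8 members as rises, beside 18% of all genes, while 3 rose when no minimum was set (5.88% of all genes) and 3 at an adjusted p under 0.01 (3.82%). The authors' deposited subset holds genes changed at least 1.5 fold, all with an unadjusted p of the authors under 0.05. CACNA1H and CACNA1B are in it as rises, 2 of the 8, beside 5.01% of all rows.

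**Figure D1:**
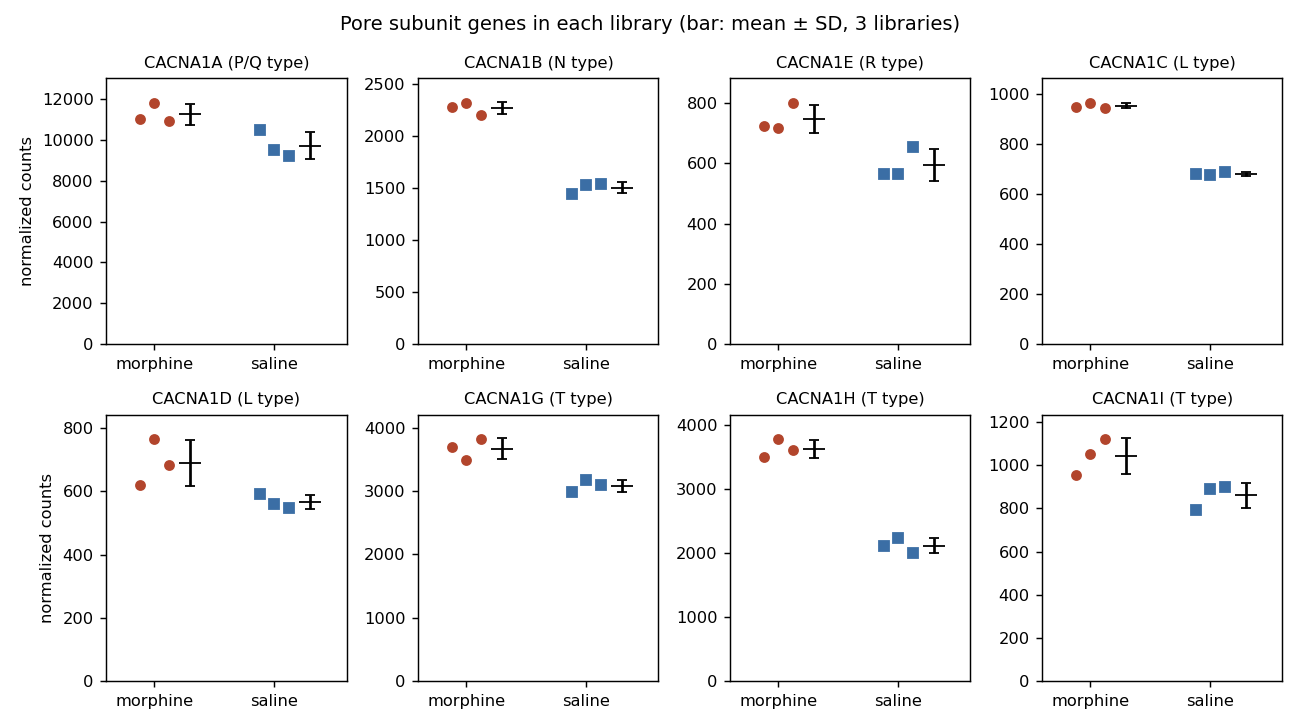
Normalized counts (vertical axes, from 0) of the 8 pore subunit genes in each of the 3 morphine libraries (circles, left) and 3 saline libraries (squares, right); the bars give the mean ± SD. In every panel the morphine libraries lie above the saline libraries, far apart for CACNA1H, CACNA1B and CACNA1C and close for CACNA1A and CACNA1D.

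Among the presynaptic types, the N-type gene CACNA1B (ENSMMUG00000009187) showed the clearest rise. It had 2285, 2324 and 2204 normalized counts in morphine libraries 1, 2 and 3, against 1442, 1532 and 1539 in saline libraries 1, 2 and 3. The lowest morphine library exceeded the highest saline library by 665 normalized counts, several times the SD of either group (61.2 in morphine, 54.1 in saline). The log2 fold change on the log2(value + 1) scale was 0.59 ± 0.0545 (SE), with a 95% interval of 0.46 to 0.73 and a limma adjusted p of 0.00356.

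CACNA1A (ENSMMUG00000003555) encodes the P/Q-type pore, the main presynaptic calcium channel of central synapses. It had 11018, 11819 and 10900 normalized counts in the morphine libraries and 10455, 9501 and 9199 in the saline libraries. The groups did not overlap, but saline library 1 lay close to the morphine range. Its log2 fold change of 0.21 ± 0.0724 (95% interval 0.03 to 0.40) did not pass (limma adjusted p = 0.086), while edgeR on the recovered reads gave an adjusted p of 0.0176 and the authors' deposited table lists 0.000156. RefSeq places 15 non-coding genes over CACNA1A, 3 over CACNA1D and 1 each over CACNA1C and CACNA1H. No source used here states whether reads were counted by strand, so part of the counts of these members could belong to the overlapping genes.

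CACNA1E (ENSMMUG00000014498), the R-type pore, had 724, 716 and 801 normalized counts with morphine and 564, 564 and 655 with saline. Saline library 3 lay nearest the morphine group, 61.4 normalized counts below its lowest library. The log2 fold change was 0.33 ± 0.0882 with a limma adjusted p of 0.0456, close to the threshold. The call was lost with TMM scaling (adjusted p = 0.0502) and when any library other than saline library 3 was left out (adjusted p from 0.0916 to 0.12).

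Of the L-type genes, CACNA1C rose and CACNA1D did not pass. CACNA1C (ENSMMUG00000012988), the Cav1.2 pore and the predominant L-type channel of brain, had 947, 964 and 944 normalized counts in the morphine libraries, against 678, 674 and 687 in the saline libraries. The libraries of a group were nearly alike, with a coefficient of variation of 1.12% in morphine and 0.973% in saline. That spread is below the counting error of 3.92% for the library with the fewest reads of this gene (651), so the 3 libraries were closer together than counting alone would usually leave them. The log2 fold change was 0.49 ± 0.0448 (95% interval 0.37 to 0.60) with a limma adjusted p of 0.00359. The edgeR test, which includes counting error, gave 0.49 with an adjusted p of 0.00102.

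In the RefSeq gene order DCP1B, a cofactor of mRNA decapping, overlaps CACNA1C. It had 609, 508 and 503 normalized counts in morphine libraries and 401, 416 and 405 in saline libraries, and rose by 0.40 ± 0.0901 on the log2 scale (limma adjusted p = 0.0286), a call that held without morphine library 1 but not without the others (adjusted p from 0.0522 to 0.0797). Without strand, reads from the overlap cannot be assigned to either gene, and its part in the rise of CACNA1C was not tested.

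CACNA1D (ENSMMUG00000019262), the Cav1.3 pore, which opens at lower voltage than Cav1.2, had 622, 765 and 684 normalized counts in morphine libraries and 591, 559 and 547 in saline libraries. Morphine library 1 stood only 30.7 normalized counts above the highest saline library. The coefficient of variation was 10.4% in morphine and 3.99% in saline. The log2 fold change of 0.28 ± 0.0916 did not pass in limma (adjusted p = 0.0761) or in the authors' deposited table (0.075), and its 95% interval ran from 0.05 to 0.51. On the recovered reads CACNA1D passed narrowly in DESeq2 (adjusted p = 0.0463) and did not pass in edgeR (adjusted p = 0.0539).

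Among the T-type genes CACNA1H showed the largest change of the 8 members. CACNA1H (ENSMMUG00000014213), the Cav3.2 pore, studied in rodents for its role in pain, had 3500, 3779 and 3609 normalized counts in morphine libraries, against 2114, 2236 and 2004 in saline libraries. The lowest morphine library stood 1263 normalized counts above the highest saline library. The log2 fold change was 0.78 ± 0.0653 (95% interval 0.61 to 0.94), which is 1.71 fold, with a limma adjusted p of 0.00314. TPSG1 overlaps the end of CACNA1H in the RefSeq gene order and was not analysed here.

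CACNA1G (ENSMMUG00000017256), the Cav3.1 pore, had 3701, 3491 and 3821 normalized counts in morphine libraries and 2984, 3172 and 3104 in saline libraries. The change was smaller than for CACNA1H: 0.25 ± 0.0592 on the log2 scale, with a limma adjusted p of 0.0335. That call was lost whichever library was left out (adjusted p from 0.0552 to 0.0954), while the DESeq2 adjusted p was 0.000114. The positive sign stayed in each of these fits.

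CACNA1I (ENSMMUG00000004878), the Cav3.3 pore, had 955, 1052 and 1120 normalized counts with morphine and 792, 892 and 897 with saline. Morphine library 1 and saline library 3 were 57.9 normalized counts apart. The log2 fold change of 0.28 ± 0.0887 (95% interval 0.05 to 0.50) did not pass in limma (adjusted p = 0.0741), and edgeR gave an adjusted p of 0.0424.

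**Figure D2:**
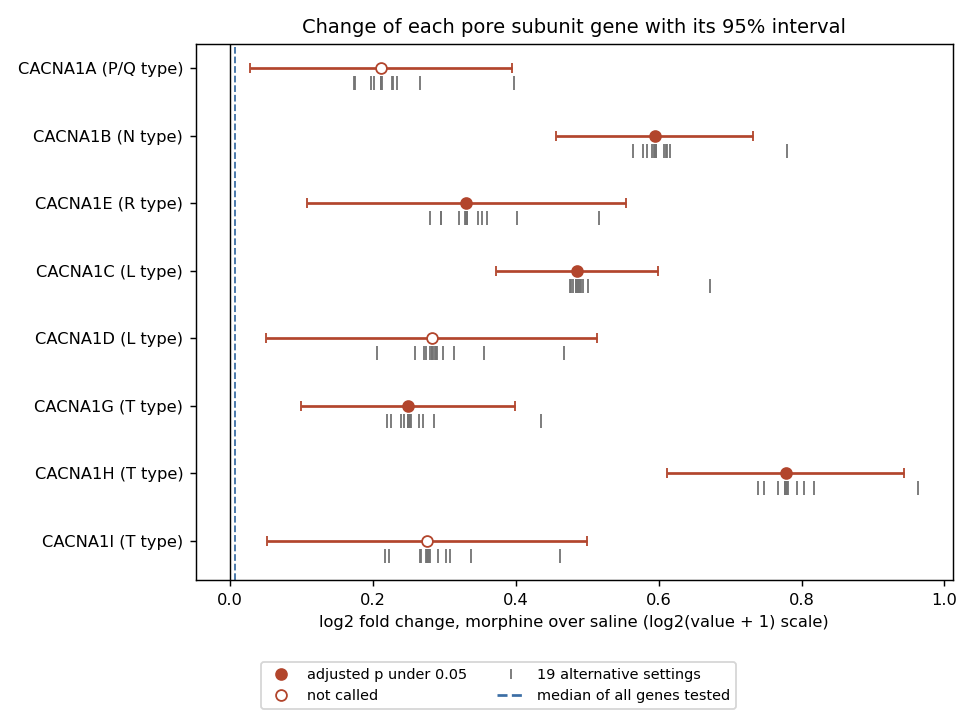
Log2 fold change of morphine over saline (horizontal axis, log2(value + 1) scale) for each pore subunit gene, with its 95% interval from limma; filled circles passed an adjusted p of 0.05 and open circles did not. Grey ticks give the values under 19 alternative settings, and the dashed line the median of all tested genes. All ticks lie above 0, though many of the settings could not turn the sign. The intervals of CACNA1H, CACNA1B and CACNA1C start at 0.61, 0.46 and 0.37.

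The members thus differed in size of change, and ratios between genes of a library, which do not depend on library scaling, put this directly. The ratio of CACNA1B to CACNA1A was 0.207, 0.197 and 0.202 in morphine libraries, against 0.138, 0.161 and 0.167 in saline libraries. The groups did not overlap, and the ratio was 1.30 fold higher with morphine. For the T-type pair, the ratio of CACNA1H to CACNA1G was 0.946, 1.08 and 0.944 in morphine and 0.708, 0.705 and 0.646 in saline libraries. Every morphine library was above every saline library, and the ratio was 1.44 fold higher.

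For the L-type pair, the ratio of CACNA1C to CACNA1D was 1.52, 1.26 and 1.38 in morphine libraries, against 1.15, 1.20 and 1.25 in saline libraries. Morphine library 2 and saline library 3 almost met, and the ratio was 1.15 fold higher with morphine. The exact two-sided permutation p was 0.1 for each of these 3 ratios (0.1 adjusted over the 3), the smallest value that 3 libraries against 3 allow. None of the 3 could therefore reach 0.05.

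**Figure D3:**
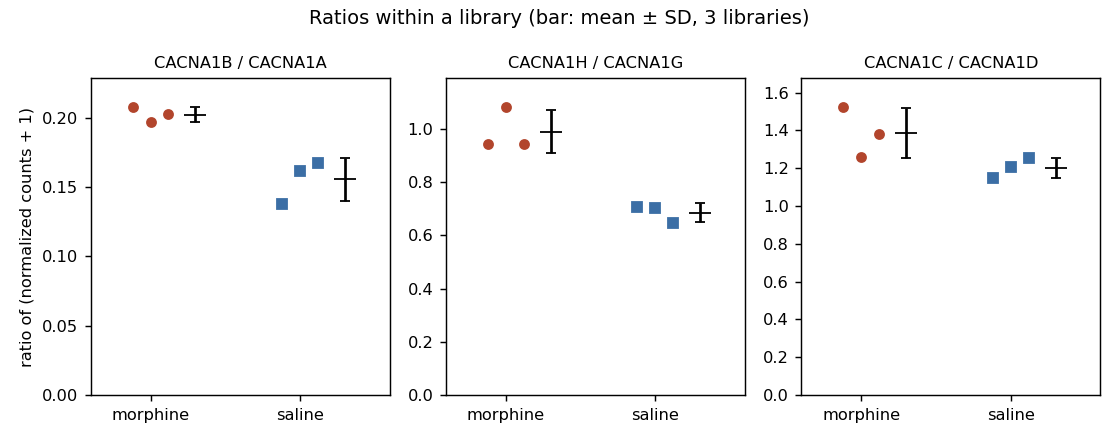
Ratio of the normalized counts of paired pore subunit genes (vertical axes, from 0, each value + 1) in the 3 morphine libraries (circles, left) and the 3 saline libraries (squares, right), with mean ± SD. The groups are well apart for CACNA1H to CACNA1G and nearly touch for CACNA1C to CACNA1D.

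As a share of the summed pore subunit counts, CACNA1H held 15.0% ± 0.219 in morphine and 11.1% ± 0.535 in saline libraries (SD, n = 3 each). CACNA1B held 9.37% ± 0.237 in morphine and 7.87% ± 0.47 in saline. CACNA1A held 46.4% ± 1.09 in morphine and 50.8% ± 2.18 in saline. CACNA1C held 3.93% ± 0.0585 in morphine and 3.55% ± 0.118 in saline, and its libraries did not overlap between groups. CACNA1G held 15.2% ± 0.998 in morphine and 16.1% ± 0.816 in saline, and CACNA1I 4.30% ± 0.321 in morphine and 4.51% ± 0.412 in saline, both with overlap. CACNA1D held 2.84% in morphine and 2.96% in saline, and CACNA1E held 3.08% in morphine and 3.11% in saline, where the groups overlapped as well. Shares sum to the whole, so a larger share of 1 gene lowers the others, and they are not per length, so they compare groups and not genes.

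The other 2 genes of the family are best known outside the cortex. CACNA1F, the L-type pore of retinal photoreceptors, had 623, 559 and 617 normalized counts in morphine libraries and 428, 450 and 363 in saline libraries. It rose by 0.54 ± 0.102 on the log2 scale (limma adjusted p = 0.0186), and the groups did not overlap. Its call was lost without morphine library 1 or 3 (adjusted p = 0.0621 and 0.0617). CACNA1S, the L-type pore of skeletal muscle, fell short of the minimum for testing, with 16, 7 and 16 reads in morphine libraries and 0, 12 and 0 reads in saline libraries. At 0 counts, as many as 3 reads per library remain possible, by counting error alone.

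Cell type markers were called in both directions in the same libraries. Beside them, 12.9% of all tested genes rose and 15% fell in limma, and 16.3% and 17.7% in edgeR. Without 1 library, 2536 to 3181 of the 16595 genes were called in limma, in either direction. Of 13 pan-neuronal markers 2 rose and 6 fell, and their summed level was 228889 to 233187 normalized counts in morphine libraries and 282263 to 291551 in saline libraries. None of the 13 rose in limma whichever library was left out, and 5 or 6 fell. In edgeR 4 rose and 7 fell. Scaled to these markers, 4 rose and 4 fell, beside 28.2% and 7.83% of all genes. That scaling takes away their average change, so a balance of signs was built in. Of 8 excitatory neuron markers 0 rose and 2 fell (195382 to 197205 summed in morphine, 214010 to 215815 in saline). That is near the 27.9% of all genes called in either direction. Their falls numbered 1 without morphine library 1 or saline library 3 and 0 without each other library, edgeR called 0 rises and 4 falls, and scaling to pan-neuronal markers gave 2 rises and 0 falls. Of 9 inhibitory neuron markers 4 rose and 1 fell, with 32761 to 34791 in morphine and 30553 to 31494 in saline, while 2 rose without morphine library 1 or 3 or saline library 2 or 3. The pore subunit genes were thus higher in libraries where the summed pan-neuronal level was lower. SNAP25 weighed most in that sum (69525 ± 943 normalized counts in morphine, 101045 ± 4225 in saline). Of the 13 markers, 4 had every morphine library above every saline library and 7 had every one below, so the sum does not stand for each marker.

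Markers of other cells were called as well, to be read against the same 12.9% and 15% of all genes. Of 9 astrocyte markers 2 rose and 5 fell (248045 to 251042 in morphine, 295820 to 300402 in saline). Of 7 microglia markers 4 rose and 2 fell (7724 to 8207 in morphine, 5335 to 5683 in saline), and of 6 oligodendrocyte precursor markers 3 rose and 0 fell (23813 to 24449 in morphine, 19563 to 19871 in saline). Of 8 oligodendrocyte markers 3 rose and 3 fell (266512 to 268830 in morphine, 260599 to 265163 in saline), and of 8 endothelial and mural markers 1 rose and 3 fell (9833 to 10322 in morphine, 11901 to 12106 in saline). The oligodendrocyte counts changed without 1 library: 1 rose without any morphine library or saline library 2 or 3, 2 rose without saline library 1, and 0 to 2 fell. Scaled to pan-neuronal markers, 4 oligodendrocyte markers rose and 1 fell, and all 6 precursor markers rose. No tested marker was at 0 in any library, and the part of glial or inhibitory cells in the pore subunit changes was not tested. When each library was divided by the geometric mean of its 13 pan-neuronal markers, the log2 fold changes of all genes moved up by 0.19 and all 8 pore subunits rose, beside 28.2% of all genes, while 7.83% of all genes fell. CACNA1H then stood at 0.96 and CACNA1A, the smallest on this scale, at 0.40.

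The genes listed as auxiliary subunits had differences of both signs, and none of the beta or alpha2delta subunits passed in limma. Of 12 tested auxiliary subunits (beta, alpha2delta and the gamma family), 1 rose, 0 fell and 6 had a positive log2 fold change, with a median of -0.06. CACNG7, a gamma-family protein that also regulates AMPA receptors, rose by 0.19 ± 0.0529 (6251, 5827 and 6223 normalized counts with morphine, 5379, 5256 and 5367 with saline; limma adjusted p = 0.0489). The beta subunits, which carry the pore to the membrane, had values of both signs and none passed: CACNB3 had 10496 ± 246 normalized counts in morphine libraries and 9419 ± 26.7 in saline libraries (log2 fold change 0.16). CACNB4 had 322 ± 6.16 in morphine and 369 ± 15.6 in saline (-0.20), and CACNB2 had 1267 ± 155 in morphine and 1595 ± 105 in saline (-0.34). CACNG2, the AMPA receptor partner stargazin, had a log2 fold change of 0.22 (limma adjusted p = 0.0637). The rise of CACNG7 was lost without any 1 library (adjusted p from 0.068 to 0.132). With TMM scaling 0 auxiliary subunits rose and 1 fell (12.1% and 15.5% of all genes). The edgeR test called 3 rises and 1 fall (16.3% and 17.7% of all genes). Scaling to pan-neuronal markers gave 4 rises and 0 falls (28.2% and 7.83% of all genes).

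Of 19 tested presynaptic partners of the N-type and P/Q-type channels 1 rose and 4 fell, near the share of all genes called (27.9% in either direction). SNAP25, a SNARE protein that binds these channels, fell by 0.54 on the log2 scale, SYT1, the calcium sensor of release, by 0.29 and the scaffold CASK by 0.50. APBA1, an adaptor that links the N-type channel to the release site, rose by 0.26 ± 0.0499, with 10540 ± 185 normalized counts in morphine libraries and 8776 ± 253 in saline libraries. The calls of APBA1 and CASK held without saline library 1 but were lost without each other library (APBA1 at adjusted p 0.0534 to 0.0618, CASK at 0.063 to 0.0908). Scaled to pan-neuronal markers, 4 partners rose and 2 fell, beside 28.2% and 7.83% of all genes. Some partners, SNAP25 and SYT1 among them, are also markers used for that scaling, so this count is not independent of it.

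Among 15 channel regulators 2 rose and 4 fell, beside 12.9% and 15% of all genes. With libraries scaled to pan-neuronal markers 4 rose and 3 fell, beside 28.2% and 7.83% of all genes. The calcineurin subunits PPP3CA and PPP3CB, of the phosphatase that acts on L-type channels, fell by 0.57 ± 0.0498 and 0.38 ± 0.0581, and the calmodulin gene CALM2 fell by 0.40 ± 0.0542. AKAP7, an anchor of protein kinase A, fell by 0.43. STAC, an adaptor of L-type channels, had 53.1, 71.7 and 49.96 normalized counts in morphine libraries and 9.87, 8.02 and 23.2 in saline libraries. It was low but did not overlap between groups, and rose by 2.13 ± 0.407 (limma adjusted p = 0.0189). Its call held only without saline library 3 and was lost without each other library (adjusted p from 0.0505 to 0.0633). AKAP7 kept its call without morphine library 3 or saline library 2 and lost it without the others (adjusted p from 0.0523 to 0.064), and CAMK2B, the other regulator that rose, lost it without any 1 library (adjusted p from 0.0551 to 0.0769).

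Among 10 G protein subunits that couple opioid receptors to channels, 0 rose and 4 fell, beside 12.9% and 15% of all genes. The falls numbered 1 to 3 without 1 library, where 2536 to 3181 of the 16595 genes were called in either direction. GNAI3 fell by 0.52 ± 0.0701 and GNAI1 by 0.38 ± 0.0859, both inhibitory alpha subunits. GNB1 fell by 0.24 ± 0.0446 and GNG2 by 0.34 ± 0.0629, members of the beta-gamma dimer that inhibits N-type channels. GNB2, another beta subunit, had a log2 fold change of 0.24 that did not pass (limma adjusted p = 0.0718). The fall of GNAI3 held without any 1 library. GNAI1 held without morphine library 3 or saline library 3, and its adjusted p was 0.0827 to 0.0917 without the others. GNB1 held without saline library 2 or 3 (0.0537 to 0.0587 without the others), and GNG2 without morphine library 3 or saline library 1 (0.0505 to 0.0613). By edgeR 1 G protein rose and 4 fell, beside 16.3% and 17.7% of all genes.

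Of 8 potassium channel genes grouped as calcium-activated, 0 rose and 2 fell in limma. In edgeR 1 rose and 3 fell, beside 16.3% and 17.7% of all genes. The 2 of 8 called in limma are near the 27.9% of all genes called in either direction. KCNT2, which is gated by sodium although it is classed with this family, fell by 0.93 ± 0.211, with 164, 218 and 155 normalized counts in morphine libraries and 338, 271 and 420 in saline libraries. KCNMB2, an auxiliary subunit of the large-conductance BK channel, fell by 0.38 ± 0.0984 (limma adjusted p = 0.0419). KCNT2 kept its call without morphine library 2 or saline library 2 and lost it without the others (adjusted p from 0.0663 to 0.0886), and KCNMB2 kept it only without morphine library 2 (0.0726 to 0.111 without the others). KCNT1, KCNMB4 and KCNN1 did not pass, at log2 fold changes of 0.23, -0.18 and 0.07. With libraries scaled to the pan-neuronal markers, 3 G proteins rose and 1 fell, and 2 of these potassium channels rose and 0 fell. On that scale 28.2% of all genes rose and 7.83% fell, and both counts of rises are near that share.

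**Figure D4:**
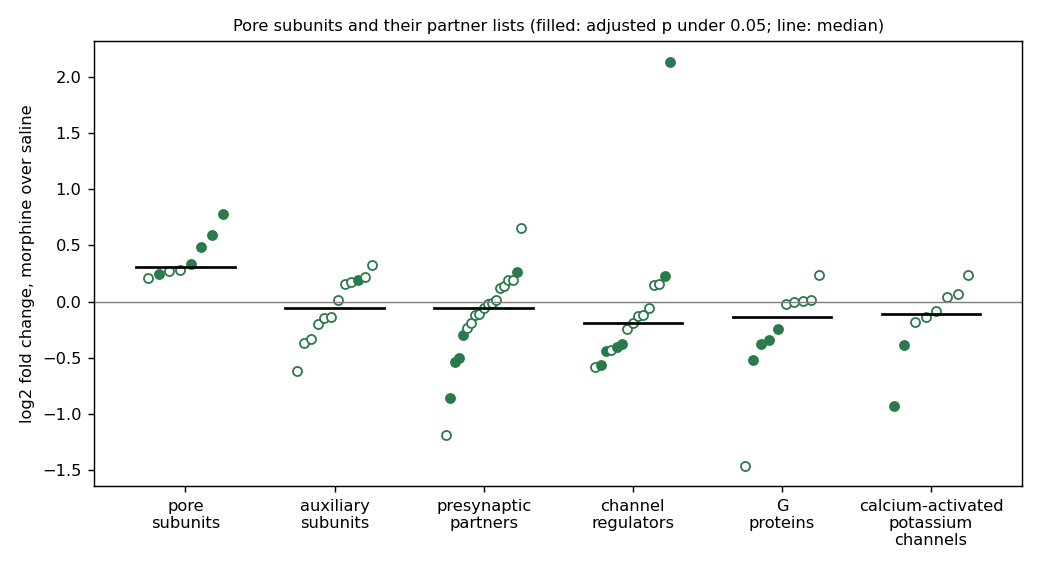
Log2 fold change of morphine over saline (vertical axis) for the tested genes of the pore subunit list and 5 partner lists, 1 circle per gene; filled circles passed an adjusted p of 0.05 in limma and lines mark medians. The pore subunits all lie above 0 with a median of 0.31, while the medians of the partner lists lie between -0.19 and -0.06.

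The genes most like each member in pattern were sought by Pearson correlation of log2(value + 1) over the 6 libraries, among 10864 other genes with a symbol and a mean of at least 100. For CACNA1H they were CDAN1, PLPPR3 and INTS15 (r = 0.998 for each of the 3), for CACNA1B PLVAP, DENND6B and PYGM (0.999, 0.999 and 0.998), and for CACNA1C B3GAT1, CPSF1 and AGT (0.9997, 0.9995 and 0.9995). A correlation of 0.95 or more was common for these members: 7.12%, 7.74% and 8.79% of the genes reached it with CACNA1H, CACNA1B and CACNA1C. The points fall into the treatment groups, and a difference between groups alone gives a high value. Fewer genes reached it with the other members, 0.46% for CACNA1D, 0.571% for CACNA1I, 0.782% for CACNA1A, 1.32% for CACNA1E and 2.29% for CACNA1G. The nearest was LRRC4B for CACNA1A, ZNF668 for CACNA1D, FOXRED1 for CACNA1E, DHDH for CACNA1G and DDX10 for CACNA1I, at r from 0.996 to 0.998.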

How the data were processed

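Tools listed in the submitters' processing notes are DESeq2 1.18.1, Bowtie2 2.1.0 and StringTie, with hg19 as the build and no role stated for any. Since the gene identifiers are rhesus ones, the build used for counting is not settled and coordinates are left out. For 23191 genes the authors deposited a normalized count in each library, which is a signal made by dividing reads by a size factor, per the file headers and values. The same deposited table holds the authors' log2 fold changes, a test statistic (a score) and p-values. A deposited subset holds 2332 genes of at least 1.5 fold, none with an unadjusted p of the authors above 0.05. All values were whole multiples of 1 read in each library (tolerance 0.001, 100%), so reads were recovered. On these reads edgeR called 5636 and DESeq2 6105 genes. Gene symbols matched 15436 identifiers (66.6%).

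Genes with a mean of at least 10 were tested with limma 3.58.1 (R 4.3.3) on log2(value + 1) with group as the only term. Changes of weakly expressed genes are understated on this scale. Tests were two-sided, with p-values Benjamini-Hochberg adjusted over all 16595 genes, and called under 0.05. Ratios were tested by exact permutation. The test scripts were checked on simulated data. Libraries of a group differed by more than sampling noise (mean chi-square per gene 17.5 to 23.8). No pairing of samples by replicate number was seen. Alternatives were TMM and upper-quartile scaling, scaling to pan-neuronal markers, other filters, pseudocounts and thresholds, an intensity trend, edgeR 4.0.16, DESeq2 1.42.0, the authors' comparison, a replicate block and each library left out. Named were all members, the other 2 genes of the family and up to 5 genes of each partner list with the smallest p. Of the genes most alike in pattern, 3 were named for CACNA1H, CACNA1B and CACNA1C each and 1 for each other member. CAMK2B, MBP, DCP1B and the flanking genes were named after their values were seen. The members and lists were chosen with earlier results of these data known. List genes without a matched row were not analysed here. The values of 1 presynaptic partner gene are not reported here. Gene order came from RefSeq (T2T-MMU8v2.0). Figures were drawn with matplotlib 3.10.9.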

Additional observations from a re-analysis of the deposited data

How the results depend on the processing

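Each of the 8 members kept a positive log2 fold change under all 19 alternatives, from 0.17 (CACNA1A without saline library 3) to 0.96 (CACNA1H scaled to pan-neuronal markers). Many of these settings could not turn the sign. The filters, the intensity trend, the replicate block and the threshold of 0.01 left the estimate as it was. As the groups did not overlap, the other pseudocounts and leaving out 1 library could not turn it either. CACNA1H, CACNA1B and CACNA1C kept their calls in all 19, with adjusted p up to 0.0426, 0.0426 and 0.0437. CACNA1E and CACNA1G each lost theirs in 9 of the 19. The members that rose numbered 5 in limma, 8 when scaled to pan-neuronal markers and in DESeq2, 3 without a filter, 3 with the replicate block (4.1% of all genes) and 3 at an adjusted p under 0.01, and 3 to 4 without 1 library. None fell in any setting (0 without 1 library). Without a filter more genes enter the adjustment. The limma p before adjustment was larger as well, at the same log2 fold change: 0.0155 against 0.00747 for CACNA1G and 0.0187 against 0.0121 for CACNA1E. The causes of the differences between settings were not tested. All genes called numbered 4631, and 2993 without a filter, 1577 with the replicate block, 1532 at an adjusted p under 0.01 and 2536 to 3181 without 1 library. Same-numbered libraries did not deviate together (correlations -0.0563, -0.00392 and -0.0284), and 0 of 6 libraries correlated best with their own number in the other group. No pairing by number was seen, though so few libraries cannot exclude it. The differences of the log2 ratios ranged without 1 library from 0.30 to 0.44 (CACNA1B to CACNA1A), 0.46 to 0.56 (CACNA1H to CACNA1G) and 0.13 to 0.27 (CACNA1C to CACNA1D). The exact two-sided permutation p was 0.1 in all 6 of these tests for the first and second pair, the smallest that 2 libraries against 3 allow, and 0.1 or 0.2 for the third. Depth limits CACNA1D most, with a counting error of 4.39% in the library with the fewest of its reads.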

Other observations

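Around the 8 pore subunit genes in the RefSeq gene order, of 16 flanking protein-coding genes 8 were tested, 1 rose and 0 fell. The 1 rise among 8 is near the share of all tested genes that rose (12.9%, with 15% that fell). ABCC3, an organic anion transporter beside CACNA1G, rose by 0.54 ± 0.0836 on the log2 scale, with 775 ± 33.9 normalized counts in morphine libraries and 534 ± 46.2 in saline libraries (SD, n = 3 each; limma adjusted p = 0.0108). SPATA20, on the other side of CACNA1G, had 942 ± 30.6 normalized counts in morphine libraries and 999.6 ± 149 in saline libraries, and did not pass (limma adjusted p = 0.675). EHMT1, a histone methyltransferase gene beside CACNA1B, had 2730 ± 117 in morphine and 2398 ± 54.2 in saline libraries, a log2 fold change of 0.19 that did not pass (limma adjusted p = 0.061). DCP1A and CHDH, which flank CACNA1D, had log2 fold changes of 0.11 and -0.14, and RPS19BP1, beside CACNA1I, 0.12. None of these 3 passed (limma adjusted p = 0.208, 0.136 and 0.173). IER5, beside CACNA1E, and CACNA2D4, an alpha2delta subunit gene beside CACNA1C, did not pass either (log2 fold changes 0.21 and -0.62; limma adjusted p = 0.677 and 0.244).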
